A study of Homo sapiens with 2 samples.

Results

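The genes described are 6 that encode the building blocks of the cytoskeleton: the actins ACTB and ACTG1, the alpha-tubulins TUBA1A, TUBA1B and TUBA1C, and the intermediate filament protein vimentin (VIM). Their RNA was searched for contacts with SOX2, a DNA-binding transcription factor of the HMG-box family, as listed in 2 PAR-CLIP experiments. In PAR-CLIP a photoreactive uridine is built into the RNA of living cells, long-wave ultraviolet light then ties RNA to the proteins that touch it, and the RNA pulled down with 1 tagged protein is sequenced. A site was assigned to a gene when it had at least 1 nt inside a fixed hg19 window around that gene, on the gene's strand. By this rule 15 of the 16964 sites of replicate 1 and 41 of the 55830 sites of replicate 2 belonged to the 6 genes.

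Both libraries form 1 group: HEK293T cells, a human embryonic kidney line carrying the SV40 large T antigen, transfected with a plasmid for FLAG-tagged SOX2. The cells received 0.2 mM 4-thiouridine 24 hours after transfection for 16 hours and 0.4 J/cm2 of light at 365 nm, and RNase T1, which cuts after guanosine, was used before and after the FLAG immunoprecipitation. SOX2 was therefore supplied from a plasmid in both experiments, and the share of cells that took it up is not given. No library without SOX2 was analysed, so neither crosslinking in its absence nor the amount of each RNA is known. The labels call the 2 experiments independent. With 1 group no test between conditions exists, and differences are set against the spread between the 2 replicates.

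Actin polymerises into microfilaments that carry cell shape, movement and cortical tension, and ACTB and ACTG1 encode the 2 cytoplasmic forms found in nearly all cells. Alpha-tubulin pairs with beta-tubulin to form microtubules, the tracks of intracellular transport and of the mitotic spindle. Vimentin forms the intermediate filaments of mesenchymal cells and of many cultured lines. The mRNAs of all 3 families are abundant in cultured cells, and the actins and alpha-tubulins have near-identical relatives and many processed pseudogenes.

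How alike the paralogs are bears on every site below, because the sources used here do not say how reads matching several genes were placed. The actin sequences that follow are coding sequences from the GENCODE v29 transcripts, written 5′ to 3′, with the positions at which the paralogs differ in capitals. The first 60 coding bases show how the actins differ at their amino-terminal codons.
ACTB: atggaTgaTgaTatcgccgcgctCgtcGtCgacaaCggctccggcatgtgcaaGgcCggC
ACTG1: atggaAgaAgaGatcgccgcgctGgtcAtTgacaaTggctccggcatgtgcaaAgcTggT
Here 10 of 60 positions differed. The last 60 coding bases, ending with the stop codon, differed at 4 positions.
ACTB: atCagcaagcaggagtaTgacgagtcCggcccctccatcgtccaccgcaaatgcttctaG
ACTG1: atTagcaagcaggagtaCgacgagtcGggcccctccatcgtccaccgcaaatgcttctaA
Over the whole 1128 coding bases the actins were identical at 1029 positions (91.2%). Their longest identical stretch, coding bases 832 to 890 of both, is the sequence in which even a fragment longer than any member site could not be told apart.
ACTB and ACTG1: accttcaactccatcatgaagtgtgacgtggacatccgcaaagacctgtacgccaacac

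The alpha-tubulins were closer still. TUBA1A and TUBA1B had 97.2% of 1356 coding bases in common, with a longest identical stretch of 221 nt. Between TUBA1B and TUBA1C the longest identical stretch measured 326 nt, and between TUBA1A and TUBA1C it measured 164 nt.

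Cut into stretches of 16 nt, the median site length of replicate 1, 82.5% of the coding sequence of TUBA1A, 88.1% of TUBA1B and 83.8% of TUBA1C also occurred in another of these 3 mRNAs. For the actins this share was 25.6%. When every GENCODE transcript of any other gene was searched, pseudogenes included, 86.7% of ACTB and 76.0% of ACTG1 coding stretches of 16 nt had a second home. At 40 nt these shares fell to 28.1% and 14.7%, whereas TUBA1B still had 81.3%. VIM stood apart from the others with 19.1% at 16 nt and 0 at 40 nt. The non-coding parts of the mRNAs had nothing in common with the member paralogs at 16 nt in any of the 6 genes. They did have stretches of 16 nt in common with transcripts of other genes. This share was 31.6% for ACTB, 36.0% for ACTG1, 7.75% for TUBA1A, 31.5% for TUBA1B, 34.9% for TUBA1C and 12.8% for VIM.

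**Figure D1:**
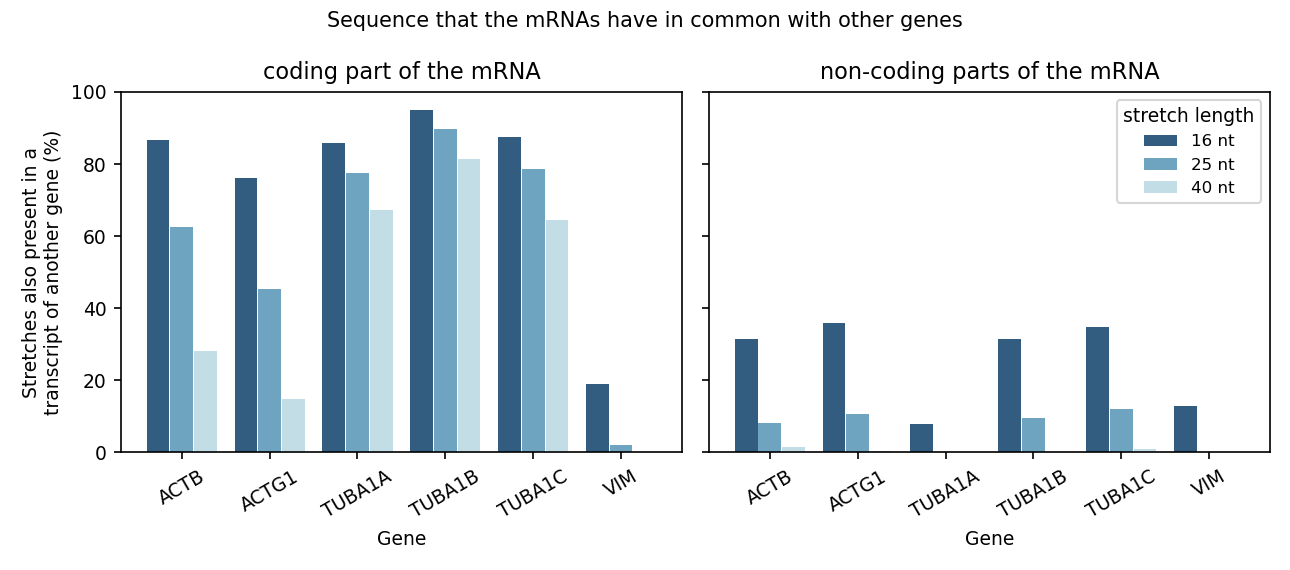
Bars give the percentage of all stretches of 16, 25 or 40 nt (dark to light) of each mRNA that also occur in a GENCODE v29 transcript of another gene, for coding (left) and non-coding (right) sequence. TUBA1B coding sequence is the least distinct, with 95.1% at 16 nt and 81.3% at 40 nt, and VIM the most distinct, with 19.1% and 0.

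ACTG1, gamma-actin, held most of the signal. Its window, on the minus strand of chromosome 17 from 79476 to 79480 kb, contained 10 sites in replicate 1 and 18 in replicate 2. The deposited score, a whole number of at least 5 for each site, is not defined by the submitters' texts used here. It summed to 11939 and 8579. These sums were 0.222% and 0.165% of all scores of their lists, or 0.194% ± 0.0405 (SD, n = 2). The 10 highest-scoring sites of each list, none of them in the 6 genes, held 59.7% and 34.6% of its score. With those left out of the sums, the ACTG1 share rose to 0.552% and 0.252%, or 0.402% ± 0.212 (SD, n = 2), so the replicates were then further apart. ACTG1 alone took 96.3% and 83.7% of the score of the 6 genes. Its sites were strong ones: 7 of 10 and 11 of 18 had scores of at least 100, against 14.8% and 7.34% of all sites in the lists.

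The strongest ACTG1 sites were 2 neighbours at the 5′ end of the covered stretch. The outer one lay at chr17:79479803-79479828 in replicate 1, with a score of 3899 (rank 84 of the list), and at chr17:79479803-79479830 in replicate 2, with a score of 2533 (rank 118). The inner one, 17 nt further downstream in both lists, lay at chr17:79479768-79479785 with a score of 3634 (rank 91) and at chr17:79479769-79479785 with a score of 2358 (rank 128). Their midpoints were 184 to 224 nt inside the 5′ edge of the window, an edge rounded to the kb. Together they carried 63.1% of the ACTG1 score in replicate 1 and 57.0% in replicate 2; they were grouped after their values were seen. Both sites scored 1.54-fold higher in replicate 1, so their ratio to each other was nearly the same in the 2 experiments.

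A further group of sites lay near the middle of the window. The site at chr17:79478566-79478593 scored 1521 in replicate 1, and its partner at chr17:79478566-79478591 scored 534 in replicate 2, 2.85-fold less. Just downstream, chr17:79478441-79478458 scored 58 in replicate 1 and its partner scored 165 in replicate 2, so it was higher in the second experiment. Replicate 2 listed 3 more sites within this group, at scores of 72, 127 and 447, and replicate 1 listed none of them. Closer to the 5′ end, the site at chr17:79479266-79479280 scored 276 in replicate 1 and lay inside a 26 nt site of replicate 2 that scored 569.

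The downstream group of ACTG1 sites was the least alike between experiments. Its strongest sites missed each other by 6 nt: chr17:79477455-79477476 with a score of 2011 in replicate 1 and chr17:79477433-79477448 with a score of 876 in replicate 2. By the 1 nt rule they do not count as shared, although both ranked in the top 1% of their lists (rank 154 and rank 315). The site at chr17:79477715-79477729 agreed closely, with scores of 211 and 225. At chr17:79477814-79477828 the score was 33, and the overlap with the replicate 2 site (score 83) was only 4 nt. The most downstream sites of the gene scored 254 in replicate 1 and 27 in replicate 2 and did not overlap.

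ACTB, beta-actin, was far more weakly represented in replicate 1 than in replicate 2. Its window, on the minus strand of chromosome 7 from 5566 to 5571 kb, held 1 site in replicate 1 and 9 in replicate 2, with score sums of 82 and 1151. The share of the list's score was 0.0118% ± 0.0146 (SD, n = 2), so the spread exceeded the mean. The only replicate 1 site, chr7:5569209-5569245 with a score of 82, was listed again in replicate 2 at chr7:5569209-5569246 with a score of 240. At 37 and 38 nt it was among the longest member sites. The strongest ACTB site of replicate 2 lay elsewhere, at chr7:5568010-5568052 with a score of 435, and replicate 1 had no site within 1156 nt of it. The other replicate 2 sites scored from 18 to 198.

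ACTG1 exceeded ACTB in both experiments, but by very different factors. The ratio of their score sums was 146 in replicate 1 and 7.45 in replicate 2, and their mRNAs are of like length, at 2011 and 1921 nt. Divided by mRNA length in kb, the score sum of the window was 5937 for ACTG1 and 42.7 for ACTB in replicate 1. In replicate 2 it was 4266 and 599. These are not densities on mRNA, since sites were not assigned to exon or intron. Within each list ACTG1 had more sites than ACTB, with 10 against 1 in replicate 1 and 18 against 9 in replicate 2. The lists differ in size, with 16964 and 55830 sites, so these counts are compared only within a list. No ACTB site had the same score as an ACTG1 site of its list among 10 possible pairs in replicate 1 and 162 in replicate 2, so no site was entered in both genes with one and the same score. How the sequence they have in common divided between them was not tested.

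**Figure D2:**
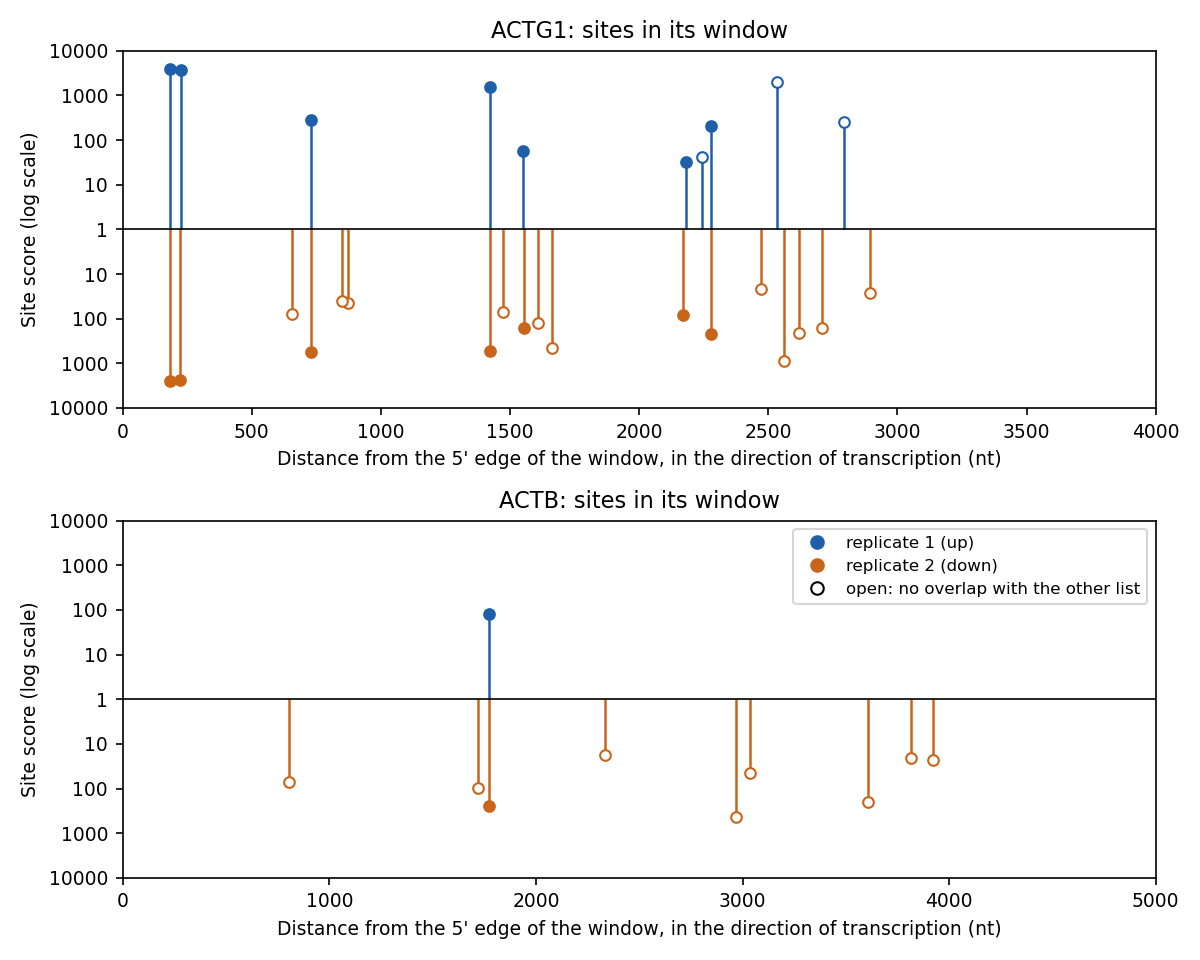
Each stem is a site of ACTG1 (top) or ACTB (bottom), placed by the distance of its midpoint from the 5′ edge of the gene's window in nt, with its score on a log scale; replicate 1 points up and replicate 2 down, and filled heads mark sites that overlap a site of the other list. The tallest ACTG1 stems stand at 184 to 224 nt in both replicates, and ACTB has 1 stem in replicate 1 against 9 in replicate 2.

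TUBA1A, an alpha-tubulin known for its role in the developing brain, had no site in either list. Its window was on the minus strand of chromosome 12 from 49578 to 49583 kb. The lists hold only sites with scores of at least 5, so this says that none was listed, not that no read fell there. As much as 82.5% of its coding stretches of 16 nt are also in TUBA1B or TUBA1C. Of its non-coding stretches of 16 nt, 0% are in TUBA1B or TUBA1C and 7.75% are in any other gene. Whether reads of TUBA1A were placed on other genes or dropped was not tested.

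TUBA1B, a widely expressed alpha-tubulin, had 2 sites in replicate 1 and 4 in replicate 2, in a minus-strand window of chromosome 12 from 49521 to 49526 kb. Replicate 1 listed chr12:49523313-49523330 with a score of 127 and chr12:49523603-49523620 with a score of 25. Replicate 2 listed its strongest site at chr12:49521677-49521700 with a score of 60, followed by scores of 28, 17 and 10. The lists did not meet anywhere in this gene: the closest approach was 911 nt. The score sums were 152 and 115, or 0.00252% ± 0.000437 (SD, n = 2) of the list. The totals were alike, but no site contributed to both.

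TUBA1C, the third alpha-tubulin, had its sites toward the 3′ edge of its window. Its mRNA measures 3001 nt and sites were not assigned to exons, so their place along the mRNA is unknown. Its plus-strand window on chromosome 12 runs for 47 kb, from 49621 to 49668 kb, and the midpoints of all its sites lay in the last 4330 nt. Replicate 1 had 1 site, chr12:49667270-49667286, with a score of 67. Replicate 2 had 6 sites with scores from 15 to 92, of which 5 lay between 962 and 1498 nt before the 3′ edge. The replicate 1 site was downstream of them all, 223 nt from the nearest. The score sums of 67 and 344 placed TUBA1C below TUBA1B in replicate 1 (0.441-fold) and above it in replicate 2 (2.99-fold), so these genes have no order that holds in both experiments. A site of TUBA1B and a site of TUBA1C in replicate 2, both 17 nt long, had the same score of 28; it was the only such match among 24 possible pairs.

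VIM had 1 site in replicate 1 and 4 in replicate 2, in a plus-strand window of chromosome 10 from 17270 to 17280 kb. The replicate 1 site, chr10:17277869-17277886, scored 159, more than any single site of TUBA1C or of VIM in replicate 2. Replicate 2 listed its strongest VIM site at chr10:17278328-17278347 with a score of 30, and others with scores of 10, 16 and 10. The nearest site of replicate 2 to the replicate 1 site was 239 nt away. VIM was the only gene of the 6 without a near-identical member paralog. Its score sum of 159 in replicate 1 was above that of each alpha-tubulin, and its 66 in replicate 2 was below those of TUBA1B and TUBA1C. Its share of the list's score was 0.00212% ± 0.0012 (SD, n = 2).

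**Figure D3:**
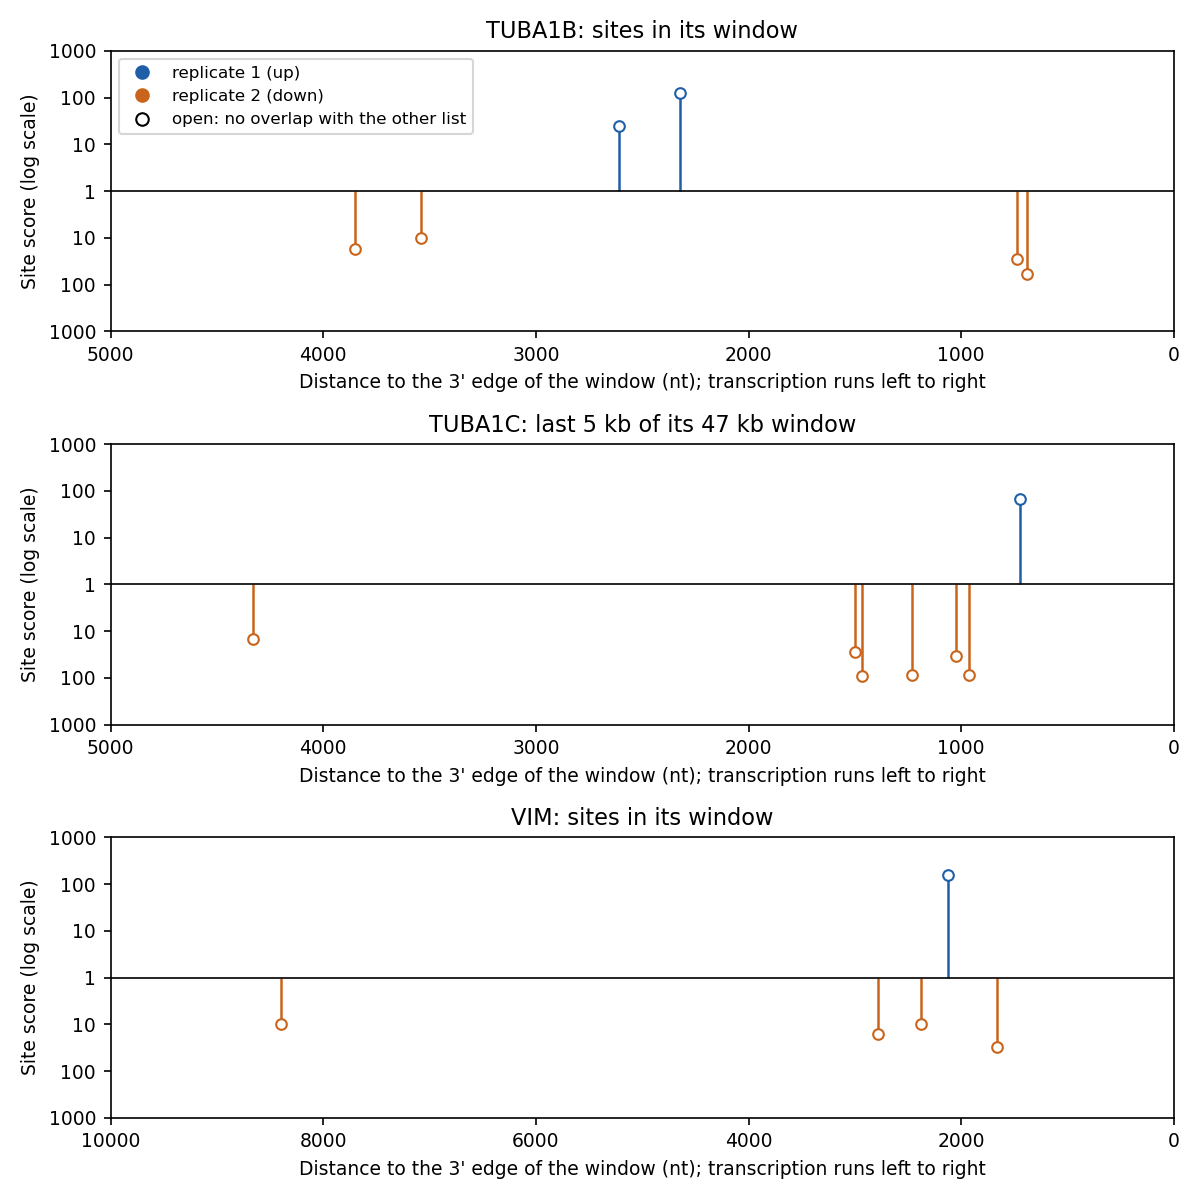
Sites of TUBA1B, TUBA1C (last 5 kb of its window) and VIM by the distance of their midpoint to the 3′ edge of the window in nt, with the score on a log scale; replicate 1 points up and replicate 2 down. All heads are open, since none of these sites overlaps a site of the other list; scores reach 127 in TUBA1B, 92 in TUBA1C and 159 in VIM.

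In order of the share of score, ACTG1 came first in both lists. ACTB came second in replicate 2 with 0.0222%, but in replicate 1 its 0.00153% fell between the 0.00125% of TUBA1C and the 0.00283% of TUBA1B. Below ACTG1 no neighbours in the order were separated by more than their spread, except that TUBA1A, with no site, stood below the rest in both lists. Window sites divided by mRNA length in kb were also highest for ACTG1 in both lists, at 4.97 and 8.95. They were 0.521 and 4.68 for ACTB, 1.23 and 2.46 for TUBA1B, 0.333 and 2.00 for TUBA1C, and 0.535 and 2.14 for VIM. These quotients count sites anywhere in the window, which is 47 kb for TUBA1C, so they are not densities on mRNA. All mRNAs but VIM were close in uridine content, the base that 4-thiouridine replaces, from 22.7% in ACTB to 25.99% in TUBA1C, while VIM had 19.9%.

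Sites of the 6 genes recurred between the experiments, and almost all of that recurrence was in ACTG1. In replicate 1, 8 of 15 sites (53.3%, 95% Wilson interval 30.1 to 75.2) met a replicate 2 site, which takes an overlap of 1 nt or more, against 21.3% of all sites. In replicate 2, 8 of 41 (19.5%, interval 10.2 to 34.0) met a replicate 1 site, against 6.50%. Of these, 7 in each list were in ACTG1 and 1 was in ACTB. Without ACTG1 the counts were 1 of 5 and 1 of 23, near the shares of all sites. Sites of 1 RNA are not independent, so the intervals cover counting error only. The shares of all sites are also not matched for how densely sites lie. In replicate 2 the ACTG1 sites covered 422 nt of a 4 kb window, and what this density adds to overlap was not tested.

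Strong sites recur more often anywhere in these lists, so the same counts were split at a score of 100. Each class was set beside the same class of all sites. Scores are not matched within a class: member scores in the upper class reach 3899 in replicate 1 and 2533 in replicate 2. Among scores of at least 100, 5 of 9 member sites were shared in replicate 1, against 49.1% of all such sites, and 7 of 14 in replicate 2, against 28.9%. Below 100 the counts were 3 of 6, against 16.5%, and 1 of 27, against 4.73%. For strong sites of replicate 1 and weak sites of replicate 2 the member counts were thus close to those of the list. The shared member sites carried 78.3% and 65.4% of the members' score.

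The edges of recurring sites were compared at both ends of the RNA. Of the 8 pairs, 4 had exactly the same 3′ end, against 17.7% of all 3636 overlapping pairs in the lists, and 1 had the same 5′ end, against 16.4%. Within 2 nt the order turned, with 5 of 8 pairs at the 3′ end, against 45.4% of all pairs, and 6 of 8 at the 5′ end, against 42.0%. The exact 3′ matches were the outer of the strong 5′ sites of ACTG1, its sites from 79478566 and from 79477715, and the ACTB pair. In 5 of the 8 pairs the score was higher in replicate 2, against 42.9% of all pairs. The median log2 ratio of replicate 2 to replicate 1 was 0.57 with an SD of 1.17, while over all pairs it was -0.21 with an SD of 1.37. The 3 member pairs with replicate 1 scores above 1000 were all lower in replicate 2, against 73.8% of the 164 such pairs in the lists, and the 5 others were all higher, against 43.7% of 3472. This split uses the score that is also the denominator of the ratio. By the replicate 2 score it does not hold, since the pair with 534 in that list was lower there and the pair with 569 was higher.

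**Figure D4:**
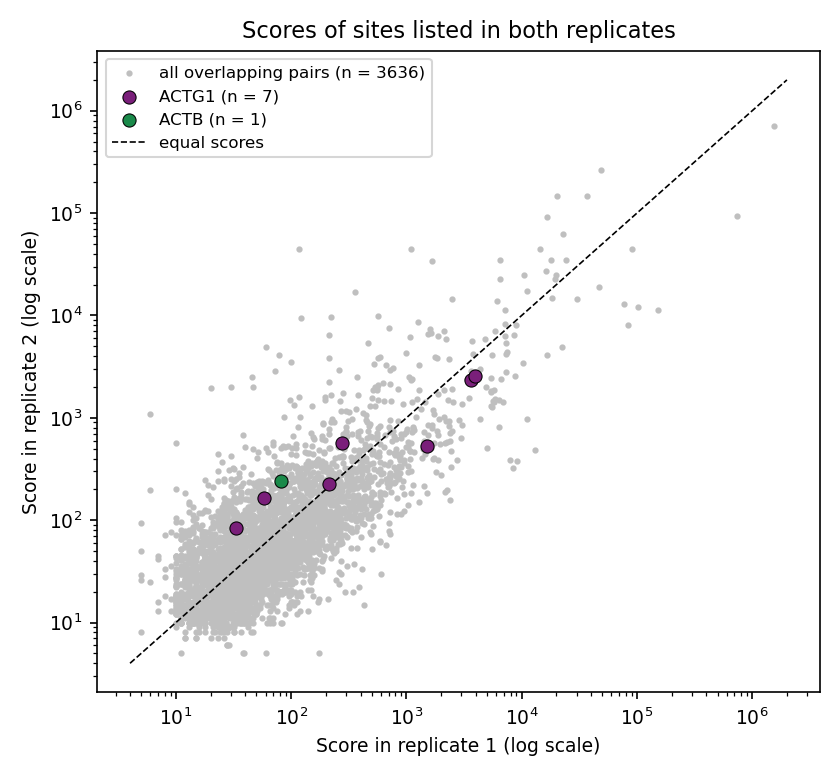
Scores of overlapping sites in replicate 1 (x axis) and replicate 2 (y axis), both on log scales, for all 3636 pairs (grey), the 7 ACTG1 pairs and the ACTB pair; the dashed line marks equal scores. The ACTG1 pairs run through the middle of the grey cloud from 33 and 83 to 3899 and 2533.

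All sites of these windows were on the strand of the gene. The opposite strand of the 6 windows held 0 sites in either list. Along the windows, with 0% at the 5′ edge, sites had a mean position of 51.4% ± 5.02 (SD, n = 2); weighted by score it was 26.3%, with the heaviest weights on the 5′ sites of ACTG1. Exon, intron and untranslated region were not assigned, since no annotation on hg19 was used here. The windows ran from 4 kb for ACTG1 to 47 kb for TUBA1C, so a percentage of the window is not a position on the RNA.

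Other cytoskeletal genes were examined in the same way, by a list of 26 genes of which 22 had windows that passed a check of strand and span. A site was listed for 15 of the 22 in replicate 1 and for 20 in replicate 2. TUBB, a major beta-tubulin, had the highest density of them, with 6 and 17 sites or 1 and 2.83 per kb of window, and score sums of 2276 and 4987. TUBB4B, another beta-tubulin, followed with 3 and 9 sites. The actin-severing protein CFL1 had 2 and 7, the thymosin TMSB10, which binds actin monomers, 1 and 3, and profilin PFN1, which promotes actin assembly, 2 and 4. On the opposite strand the windows of the 22 genes held 3 sites in each list, of which 2 in each list were in PFN1. ACTG1, at 2.50 and 4.50 sites per kb of window, was denser than every one of these genes in both lists, and its score sum exceeded theirs too. TUBB had more sites and a higher score sum than TUBA1A, TUBA1B and TUBA1C together in each list. Sequence in common with other genes was measured for the 6 members only, so not for TUBB or the other beta-tubulins.

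Of the 7 tubulins on this list, 3 had a site in replicate 1 and 7 in replicate 2. Of the 11 actin-binding genes, 9 and 10 had one, and of the 4 intermediate filament genes, 3 and 3. The lamin LMNB2, of the nuclear envelope, had 4 and 13 sites in a 30 kb window. The actin crosslinker ACTN4 had 8 and 22, the most of these 22 genes in both lists, in a window of 84 kb. NES, which encodes the intermediate filament protein nestin, and TMSB4X, a thymosin like TMSB10, had none in either list.

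**Figure D5:**
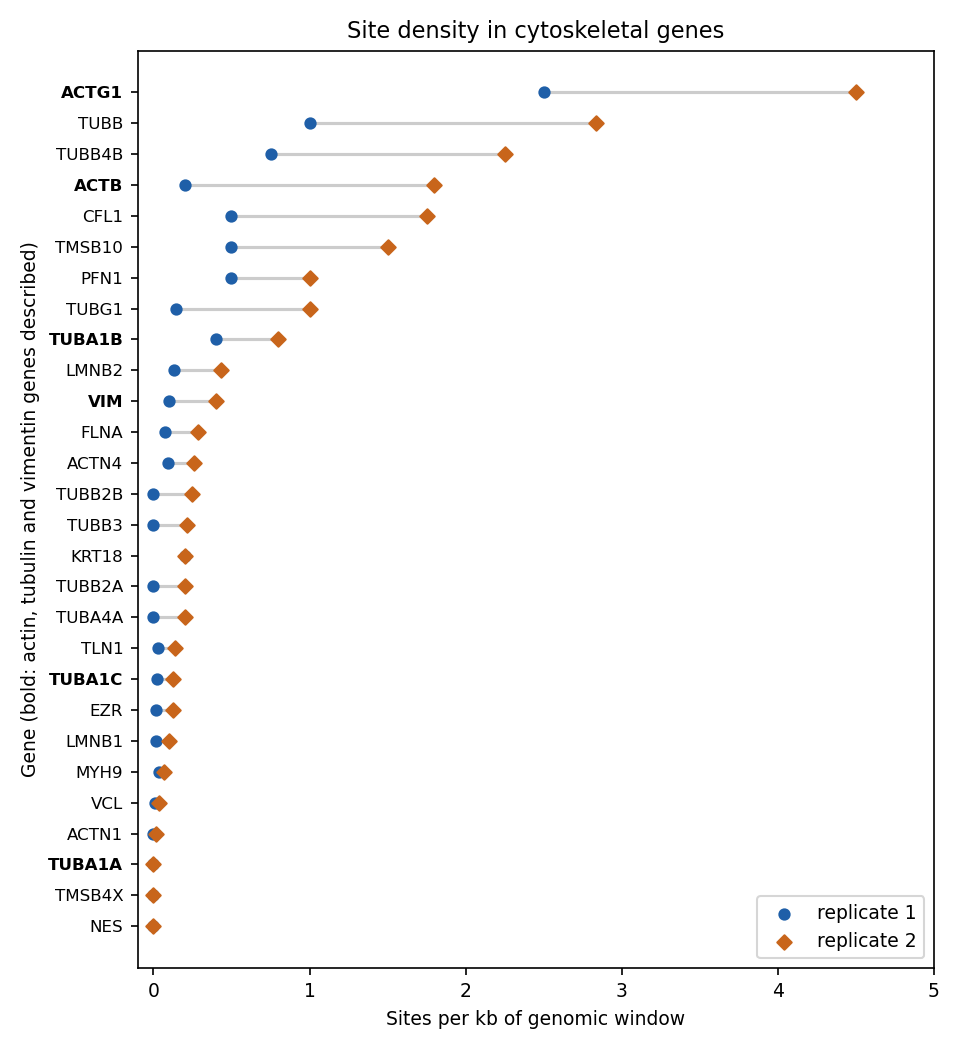
Sites per kb of genomic window in replicate 1 (circles) and replicate 2 (diamonds) for the 6 actin, tubulin and vimentin genes (bold) and 22 other cytoskeletal genes, ordered by replicate 2. ACTG1 is highest in both replicates, at 2.50 and 4.50, followed by TUBB at 1 and 2.83; long genes such as MYH9 sit near 0.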

How the data were processed

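Each library has a deposited list of sites with chromosome, start, end, name, score and strand. The score is used as the authors deposited it; for what it counts, the site caller and the placement of reads matching several genes, nothing is stated in the sources used here, and read depth is unknown. The submitters' processing notes list bcl2fastq and Bowtie 1.1.2 as tools and hg19 as build, without their settings; libraries had 18 PCR cycles and 50 nt reads, per the labels. The lists' scores sum to 5365592 and 5192778. Positions count from 1.

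Sites were assigned to kb windows and compared between lists in Python 3.11.15 (numpy 2.4.6, pandas 2.3.3, scipy 1.17.1). Shared means at least 1 nt in common on the same strand. The code was tested on simulated data. GENCODE v29 transcripts (GRCh38) gave sequences and lengths only. Per gene the mRNA was the longest principal CCDS transcript of support level 1 not tagged for an alternative 5′ untranslated region. No coordinates were converted. Alpha-tubulin sequences are not reported here.

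The members and lists were chosen with earlier results of these data known. The 6 members are all named, with their strongest and shared sites. Windows of the 26 other genes came from general knowledge and were kept when strand matched, the span was within 10% or 2 kb, and the start within 3 Mb, of the GRCh38 tables; the 5 with the best mean rank of density are named, and LMNB2, ACTN4 and those without sites were added after their values were seen. The lists hold no expression levels, so the cell line was not checked against markers. Alternatives are given in the closing section.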

Additional observations from a re-analysis of the deposited data

How the results depend on the processing

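Of 34 alternative values, 24 stayed within 1.5 times the count, the spread or the interval of the value reported. The spread was that between replicates, and for the score ratio that between the 8 member pairs. The member count of 28 per replicate on average was 15 to 41 with either replicate left out, and the score share 0.198% to 0.231%. The mean score share of 0.214% ± 0.0238 (SD, n = 2) became 0.438% ± 0.192 when the 10 highest-scoring sites of each list were left out of the sum, 0.154% without the strongest member site and 0.0204% without ACTG1. Leaving out ACTG1, a choice made after seeing the data, also left 5 and 23 member sites, of which 20% and 4.35% were shared. With scores weighting the sites, the mean position moved to 26.3% of the window. With a score of at least 20, the other cytoskeletal genes kept 74 of 128 sites in replicate 2. The median log2 ratio of shared sites stayed above 0, from 0.09 with an overlap of at least 50% of both sites to 1.55 without ACTG1, a lone pair. Shares of shared member sites ranged from 46.7% to 66.7% in replicate 1 and from 17.1% to 31.7% in replicate 2 over the overlap, gap, score and list-size settings. Leaving out either replicate leaves no sharing to compute. No paired analysis was possible because all samples are in a single group. Depth is unknown, so what it limits among weak sites was not tested.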

Other observations

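Outside the member windows, within 1 kb on the same strand, the lists held 1 site, beyond the 5′ edge of the ACTB window in replicate 1, with a score of 21. The 4 cytoskeletal genes whose windows failed the check were TUBB6 and KRT8, with no site in the windows tried, MSN, with 0 and 1, and LMNA, with 0 and 3; they enter no count above.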
